A study of Mus musculus with 4 samples.

Results

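A set of 10 genes was followed across the cells of tumour-draining lymph nodes. It held enzymes that break tryptophan down along the kynurenine route and a secreted oxidase, Il4i1, that acts on tryptophan by another reaction. It also held the tryptophan-charging enzyme that competes for the same amino acid, and the receptor that senses several of the products. The members were taken by symbol from the 31053 genes of the deposited matrix, and 10 of 10 were found: Ido1, Ido2, Il4i1, Afmid, Kmo, Kynu, Haao, Qprt, Wars and Ahr. Their identity was set by name and not by a rule on their levels, but they were chosen with earlier results of these data known. The nodes came from C57BL/6J mice with B16F10 tumours, a transplantable mouse melanoma line, grown at the upper anterior thigh on both sides. The control group was 2 untreated mice. The treated group was 2 mice given indoximod at 2 mg/ml in drinking water and ibrutinib at 350 ug per day by intraperitoneal injection from day 9, then cyclophosphamide at 150 mg/kg on day 10. Indoximod is a tryptophan analogue used as an inhibitor of the IDO pathway, ibrutinib inhibits the kinase BTK, and cyclophosphamide is an alkylating chemotherapy drug. Inguinal nodes were taken from all mice 48 h after the cyclophosphamide, and age and sex were not given. The matrix joins 4 libraries whose barcodes end in a library number from 1 to 4, and no label ties a number to a mouse, so treated and control were not compared here. Many levels are given library by library. Other levels, and most ratios, come from UMIs summed over the 4 libraries and so pool treated and control mice. No significance test was made.

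The 4 libraries held 7002, 6978, 7013 and 9831 barcodes, against about 2000 cells per sample stated for the study, and 39589629 to 53643414 unique molecular identifiers (UMIs, each one captured RNA molecule). Keeping those with 300 genes or more and no more than 10% mitochondrial UMIs left 26096. Of these, 23920 fell into 18 classes gated on marker genes that include no member. The classes used most were B cells (8884 barcodes), germinal centre B cells (383), CD4 T (2925), CD8 T (6744), regulatory T (436), gamma-delta T (207), mature dendritic cells (mature DC, 423), type 1 dendritic cells (cDC1, 30), plasmacytoid dendritic cells (pDC, 59), monocytes with type 2-like dendritic cells (96) and macrophages (161). Genes outside the gates matched the names: Tcf4 was at 1995 counts per 1000000 UMIs of the class (CPM) in pDC against 70.6 in all other barcodes, and Batf3 was at 284 in cDC1 against 10.4. Macrophage barcodes were shallow, with a median of 983 UMIs, and only 3 barcodes passed the melanoma gate. Cd79a, a B cell gene, had a UMI in 0.483% to 9.32% of the barcodes of the T, NK, dendritic cell, monocyte and macrophage classes. Cd79b, its partner in the B cell receptor, had one in 6.32% of CD4 T, 15.9% of CD8 T, 28.0% of gamma-delta T, 20.8% of monocyte-class and 30.5% of pDC barcodes. Whether these UMIs came from other cells, from mixed droplets or from the cells themselves was not tested. A further 86 barcode sequences occurred in more than 1 library.

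Tryptophan is opened to formylkynurenine by IDO1 or IDO2 in immune cells and by TDO2, best known from liver. Formamidase (Afmid) turns this into kynurenine, and kynurenine monooxygenase (Kmo), kynureninase (Kynu), 3-hydroxyanthranilate dioxygenase (Haao) and quinolinate phosphoribosyltransferase (Qprt) carry it on towards NAD. IL4I1 is a secreted oxidase that removes the amino group of tryptophan and phenylalanine, and the cytosolic enzyme encoded by Wars loads tryptophan onto its transfer RNA. Kynurenine and products of the IL4I1 reaction are known ligands of the aryl hydrocarbon receptor (Ahr), a transcription factor of T cells, dendritic cells and barrier tissues.

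The members did not share 1 leading class. Ido1 and Ido2 were almost undetected, with 33 and 6 UMIs among 165348569. Il4i1 was led by mature DC, Kmo by pDC and then B cells, Haao by pDC and B cells with a second site in CD8 T cells. Qprt UMIs were mostly in T cells, though macrophages had the highest level from 3 UMIs. Kmo, Kynu and Haao were found together in the same barcode in 36 of 8884 B cells, 10 of 383 germinal centre B cells and 5 of 59 pDC. They were together in 1 of 96 monocyte-class barcodes and in 0 of the T cell and mature DC barcodes. Outside the classes this held for 9 of 1452 barcodes with B and T markers and 6 of 327 with lymphoid and other markers. Germinal centre B barcodes were deeper than B cell barcodes, at a median of 10346 against 3778 UMIs. A barcode without a UMI is no evidence that the cell lacks the RNA at this depth. Ahr was highest in the monocyte class, cDC1 and regulatory T cells. The order among these was not clear, as libraries of the monocyte class and regulatory T cells overlapped and cDC1 held few UMIs.

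**Figure D1:**
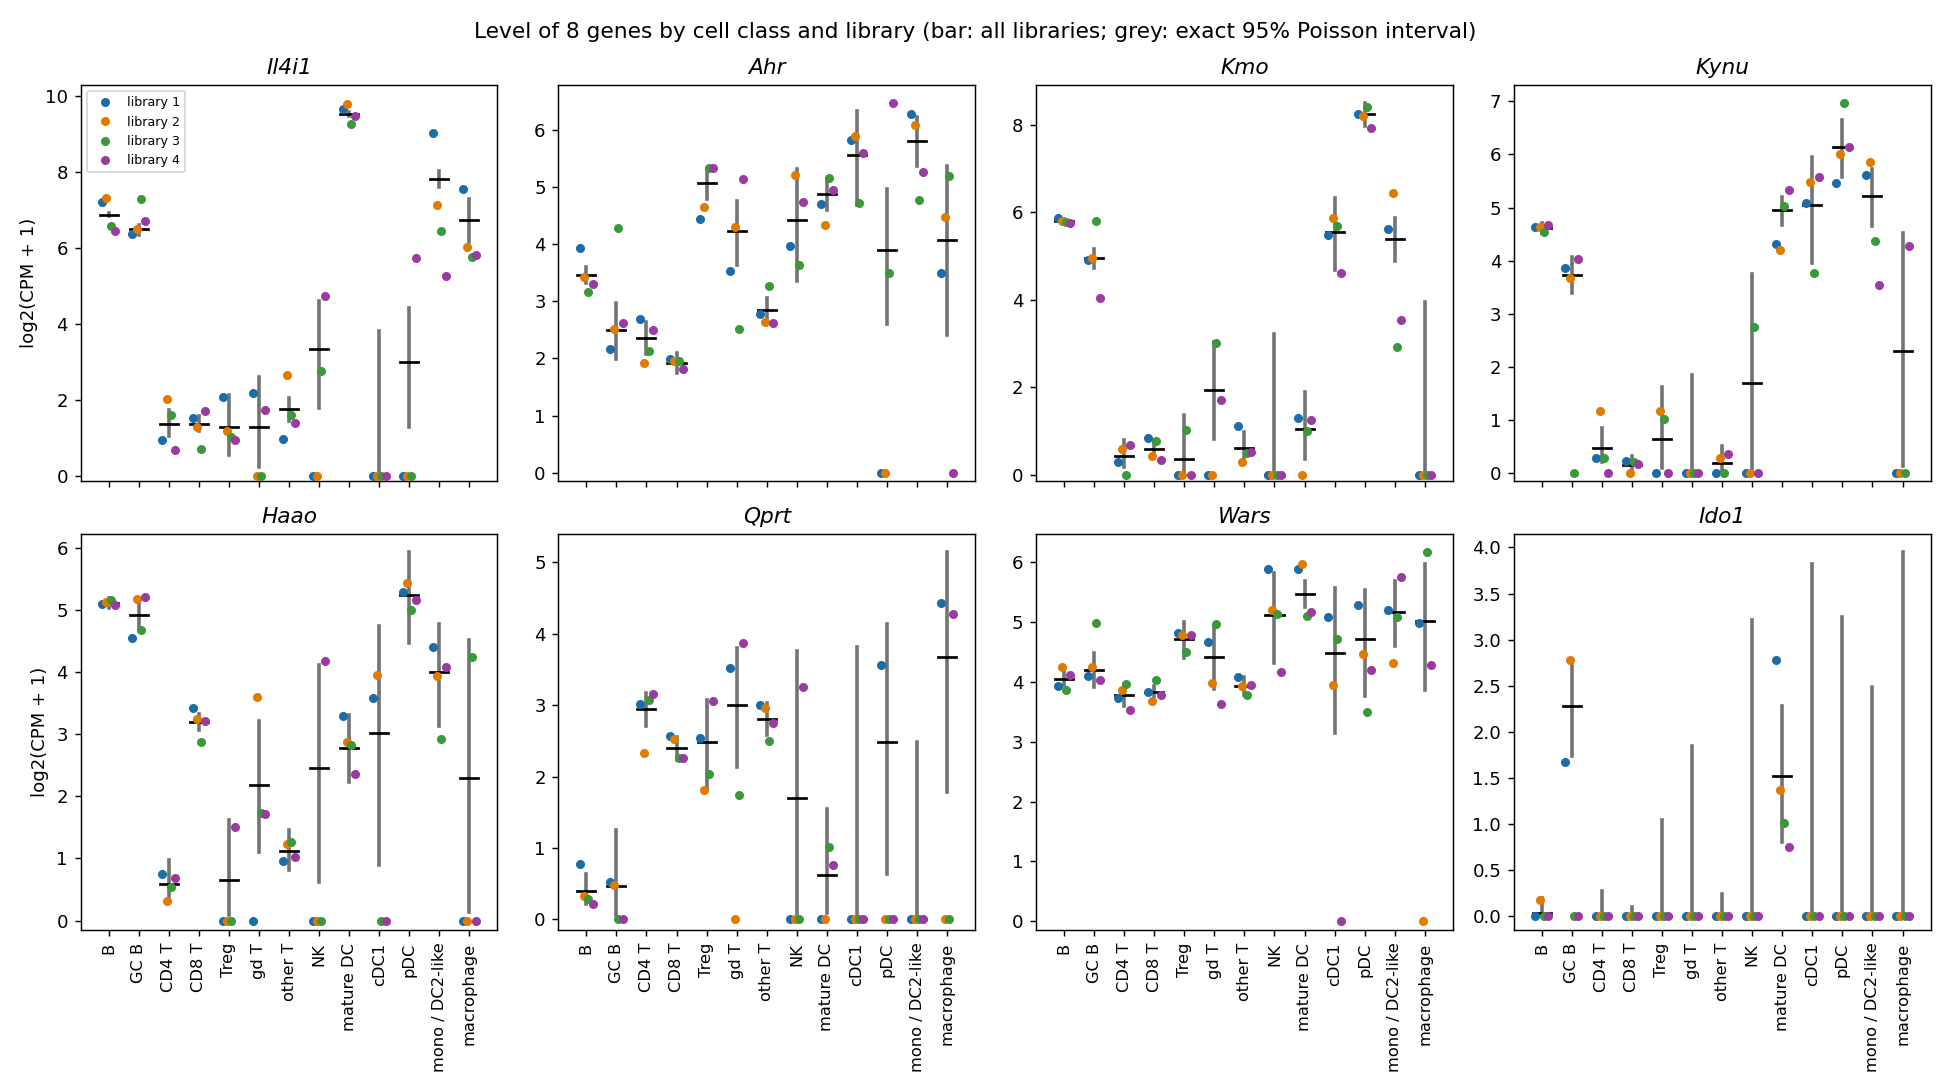
Level of 8 of the 10 genes as log2(CPM + 1) on the vertical axis in 13 cell classes on the horizontal axis. Coloured points are libraries 1 to 4, the black bar is the level over all libraries and the grey line its exact 95% Poisson interval; the mature DC points of Il4i1 lie between 614 and 886 CPM, above every point of the other classes.

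The 250 bases before the RefSeq start (GRCm38.p6, the mm10 build, each read on the gene's own strand) are shown for the 4 members whose class patterns the results turn on, and for the AhR target Ahrr described at the end. RefSeq windows matched 5 of 10 members. Capitals mark matches to any of 4 motifs searched on both strands: GCGTG, the core of AhR response elements; the core of the interferon-stimulated response element (ISRE), by name; TTCNNNGAA, of STAT sites; and CAGGTG, of E boxes bound by E proteins. For the 4 members, these RefSeq starts lie inside the gene spans of the GENCODE annotation, so upstream starts exist. The windows are chr7:44836038-44836287 for Il4i1 (plus strand), chr1:175631943-175632192 for Kmo (plus strand), chr17:83846791-83847040 for Haao (minus strand), chr7:127122030-127122279 for Qprt (minus strand) and chr13:74292332-74292581 for Ahrr (minus strand).
Il4i1: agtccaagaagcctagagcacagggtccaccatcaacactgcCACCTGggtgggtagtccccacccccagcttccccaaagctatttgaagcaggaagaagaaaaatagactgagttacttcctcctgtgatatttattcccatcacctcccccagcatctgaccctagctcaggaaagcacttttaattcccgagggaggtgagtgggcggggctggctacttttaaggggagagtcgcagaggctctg
Kmo: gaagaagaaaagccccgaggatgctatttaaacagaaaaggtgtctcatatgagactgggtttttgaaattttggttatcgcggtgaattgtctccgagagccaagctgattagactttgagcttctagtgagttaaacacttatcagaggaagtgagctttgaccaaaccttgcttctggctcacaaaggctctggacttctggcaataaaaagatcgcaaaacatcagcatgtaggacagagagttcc
Haao: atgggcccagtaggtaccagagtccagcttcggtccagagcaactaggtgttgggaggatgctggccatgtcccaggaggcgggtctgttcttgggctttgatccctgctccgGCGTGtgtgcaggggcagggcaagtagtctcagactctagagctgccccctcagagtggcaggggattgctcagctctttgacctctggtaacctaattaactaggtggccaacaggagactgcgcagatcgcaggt
Qprt: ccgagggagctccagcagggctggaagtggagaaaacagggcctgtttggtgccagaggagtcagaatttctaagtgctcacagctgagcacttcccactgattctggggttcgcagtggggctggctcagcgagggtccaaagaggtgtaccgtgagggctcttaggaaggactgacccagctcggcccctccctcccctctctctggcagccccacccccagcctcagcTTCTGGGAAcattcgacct
Ahrr: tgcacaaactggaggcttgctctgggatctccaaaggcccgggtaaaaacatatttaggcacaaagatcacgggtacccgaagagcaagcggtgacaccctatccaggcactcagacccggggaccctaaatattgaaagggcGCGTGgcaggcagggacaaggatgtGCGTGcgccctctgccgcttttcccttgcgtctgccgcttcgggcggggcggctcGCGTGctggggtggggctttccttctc

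The Il4i1 window held 1 E box, read on the opposite strand, from 208 bases before the start. The Haao window held 1 GCGTG at 137 bases before the start, and the Qprt window 1 STAT motif at 19 bases before it. The Kmo window held none of the 4. Ahrr, the AhR repressor gene, held 3 GCGTG at 107, 82 and 27 bases before its start. Over all 32851 RefSeq windows of this length, GCGTG was found in 28.2% and at least 3 times in 2.77%, the ISRE core in 2.98%, TTCNNNGAA in 7.02% and CAGGTG in 17.2%. Kmo and Haao, whose levels were correlated across classes but parted in pDC and CD8 T cells, shared no motif of the 4 in these windows. A match describes letters only and says nothing of whether a factor binds there.

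Ido1 (ENSMUSG00000031551, chromosome 8, 24584136 to 24597009) and Ido2 (ENSMUSG00000031549, chromosome 8, 24531892 to 24576333) encode the enzymes at the head of the route. Germinal centre B cells held 20 of the 33 Ido1 UMIs, in 15 of 383 barcodes (3.92%, exact Clopper-Pearson interval 2.21% to 6.38%). By library these were 5 UMIs in 163 barcodes, 15 in 177, 0 in 19 and 0 in 24. The libraries with 0 are too small to differ from the others: 3 counts, the most that a count of 0 allows, would be 18.4 and 15.5 CPM there, above the 2.18 and 5.87 CPM of libraries 1 and 2. The 15 barcodes were deep, with a median of 23652 UMIs against 10295 in the other 368. The part of depth in which barcodes showed Ido1 was not tested.

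Mature DC held 7 Ido1 UMIs in 7 of 423 barcodes, 4 in library 1 and 1 in each of the others. Of these 7 barcodes, 6 also had Il4i1. The rest of Ido1 was 1 UMI in B cells, 3 in barcodes with both B and T markers, 1 in barcodes with lymphoid and other markers and 1 in barcodes of no class. No Ido1 UMI was seen in cDC1, where 3 counts would be 10.7 CPM, in pDC (6.91), in the monocyte class (3.75) or in macrophages (11.8), so levels like that of germinal centre B cells were not detectable in cDC1, pDC or macrophages. The bounds were far lower in CD8 T cells (0.059 CPM) and CD4 T cells (0.169). Ido2 had 3 UMIs in mature DC, 1 in germinal centre B cells and 2 in barcodes with lymphoid and other markers.

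Il4i1 (ENSMUSG00000074141, chromosome 7, 44816387 to 44840809) was highest in mature DC. Mature DC stood at 805, 886, 614 and 701 CPM in libraries 1 to 4, with a UMI in 353 of 423 barcodes (83.5%). B cells stood at 146, 158, 93.8 and 85.9 CPM. The lowest mature DC library was above the highest B cell library. Over all libraries the ratio was 2.65 on the log2 scale (counting interval 2.58 to 2.72; 2.47 to 3.03 by library). T cells were near 0 in comparison, between 1.41 CPM in gamma-delta T and 2.35 in T cells of no subset. In CD4 T cells the gene had a UMI in 0.752% of barcodes at a median of 5748 UMIs, against 26.7% of B cells at 3778, and Cd79a itself had a UMI in 4.34% of the same CD4 barcodes. Il4i1 shares 59.1% of its span with Nup62 on the same strand, so reads in shared exons may have been split or lost.

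The other dendritic cells did not share this level. In cDC1, 0 of 30 barcodes had an Il4i1 UMI, which makes mature DC at least 68.3-fold higher against 3 counts in cDC1. In pDC there were 3 UMIs, all in library 4. The monocyte class read 517, 138, 85.8 and 37.1 CPM, a spread of 13.9-fold between its highest and lowest library, and 69.1% of its 178 UMIs came from 5 barcodes, 4 of them in library 1. Monocyte-class barcodes with no mature DC marker stood at 118 CPM (93.0 to 148, exact Poisson interval), and the 14 with 1 or 2 such markers at 651 (531 to 790). Mature DC were 1.71 (1.49 to 1.94) higher on the log2 scale than the monocyte class, from 0.64 in library 1 to 4.24 in library 4, and this ratio was no longer called at a fold of 2, with 1 more marker needed, or with the stricter cell filter.

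Afmid (ENSMUSG00000017718, chromosome 11, 117825924 to 117839908) was low. Its 198 UMIs gave 1.60 CPM in B cells, 1.47 in CD4 T, 1.12 in CD8 T and 0.800 in mature DC, and 0 UMIs in cDC1 and pDC, which allows up to 10.7 and 6.91 CPM. T cells of no subset were at 0.588 CPM (0.304 to 1.03), below the interval of B cells (1.22 to 2.06). The gene lies over 99.97% of its span under another gene model on the same strand, Gm20708, so its count is uncertain.

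Kmo (ENSMUSG00000039783, chromosome 1, 175620381 to 175662116) was the member that set pDC apart. The pDC values were 304, 295, 340 and 243 CPM, and 46 of 59 barcodes had a UMI. B cells were close to one another at 57.7, 54.6, 53.6 and 53.0 CPM. Every pDC library lay above every B cell library, by 2.47 on the log2 scale (2.20 to 2.72; 2.20 to 2.66 by library). With each barcode thinned to 1500 UMIs, 45.3% of 53 pDC barcodes and 7.41% of 8756 B cells had a Kmo UMI, 6 and 128 shallower barcodes being left out. The cDC1 held 13 UMIs (46.2 CPM, 24.6 to 79.03), from which pDC differed by 2.71 (1.88 to 3.65), and the monocyte class 41.2 CPM with 48.1, 85.4, 6.60 and 10.6 by library. Mature DC held 4 UMIs in 423 barcodes, or 1.07 CPM, lower than B cells by a log2 ratio of -5.67 (-7.55 to -4.32). T cell classes were between 0.287 and 2.82 CPM.

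Kynu (ENSMUSG00000026866, chromosome 2, 43555329 to 43682715), whose product cleaves kynurenine and hydroxykynurenine, was spread over pDC, the monocyte class, cDC1, mature DC and B cells. The levels were 69.1 CPM in pDC, 36.2 in the monocyte class, 32.0 in cDC1, 29.9 in mature DC and 23.6 in B cells. Macrophages held 1 UMI in 161 barcodes (3.93 CPM, 0.099 to 21.9). In the order pDC, monocyte class, mature DC and B cells, each class overlapped the next over libraries. The cDC1, with 9 UMIs (14.6 to 60.7 CPM), were not placed in this order. In mature DC the libraries read 19.0, 17.5, 31.5 and 39.2 CPM. The pDC were higher than B cells by 1.55 (0.97 to 2.07) on the log2 scale, a call that was lost at a fold of 2 and with the stricter cell filter, where the ratio was 0.99. T cell classes held at most 0.574 CPM. Germinal centre B cells were lower than B cells at 12.3 CPM, a log2 ratio of -0.94 (-1.33 to -0.58). Thinned to equal depth, the ratio was 0.071 in 1 random thinning, given without an interval. Among thinned barcodes, a Kynu UMI was found in 2.90% of 379 germinal centre B and 3.68% of 8756 B cells. The part of depth in this difference was not tested.

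Haao (ENSMUSG00000000673, chromosome 17, 83831156 to 83847963) makes the precursor of quinolinate. B cells read 33.1, 33.8, 34.6 and 32.8 CPM, the highest 1.05 times the lowest, and germinal centre B cells 22.2, 35.2, 24.5 and 36.1. The pDC stood at 36.9 CPM from 16 UMIs (21.1 to 59.9), not apart from B cells at a log2 ratio of 0.14 (-0.67 to 0.84). Mature DC were lower at 5.87 CPM, by -2.51 (-3.19 to -1.91). CD8 T cells carried a second, smaller pool: 9.75, 8.47, 6.30 and 8.24 CPM against 0.684, 0.252, 0.451 and 0.609 in CD4 T cells. Every CD8 library was above every CD4 library, by 4.00 on the log2 scale (3.06 to 5.14). A UMI was found in 386 of 6744 CD8 barcodes (5.72%) and 9 of 2925 CD4 barcodes (0.308%), or 1.23% and 0.137% after thinning. In CD8 T cells there were 15.9 Haao UMIs for each Kmo UMI, against 0.615 in B cells. Without the CD8 barcodes that held any Cd79a UMI, Haao stood at 8.02 CPM. With every barcode holding Cd79a or Cd79b left out, a setting added after the data were seen, it stood at 7.82 CPM (6.98 to 8.74) in CD8 and 0.572 (0.262 to 1.09) in CD4 T cells.

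Qprt (ENSMUSG00000030674, chromosome 7, 127107114 to 127122226), the last step before the NAD precursors, had the reverse pattern. CD4 T cells read 7.07, 4.03, 7.43 and 7.92 CPM and B cells 0.706, 0.255, 0.217 and 0.159. No library overlapped, and B cells were lower by a log2 ratio of -4.41 (-5.41 to -3.56). CD8 T cells stood at 4.26 CPM, regulatory T at 4.59 and gamma-delta T at 7.04, none of them called against CD4 T. The monocyte class and cDC1 had 0 UMIs, which allows up to 3.75 and 10.7 CPM, and mature DC had 2. Macrophages had 3 UMIs (11.8 CPM, 2.43 to 34.4), or 1 without the barcodes that also held Cd79a or Cd3e RNA (4.52 CPM, 0.115 to 25.2), and pDC had 2 (4.61 CPM, 0.558 to 16.6). Both intervals overlapped that of CD4 T cells.

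**Figure D2:**
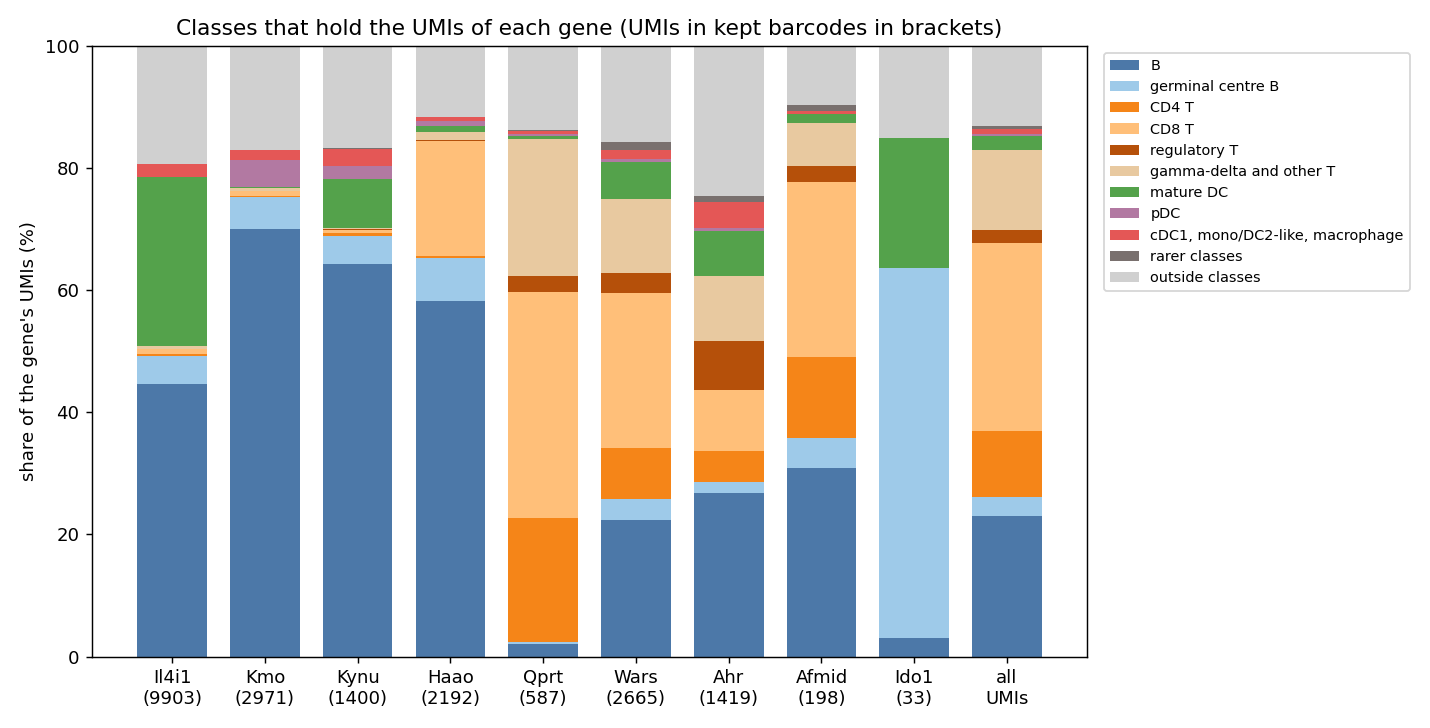
Share of each gene's UMIs in kept barcodes, in percent on the vertical axis, by the class that holds them, for 9 genes and for all UMIs on the horizontal axis. B cells hold 69.9% of Kmo, 64.4% of Kynu and 58.3% of Haao UMIs but 2.04% of Qprt, against 23.1% of all UMIs.

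Counted by UMIs and not by level, B cells held most of the middle of the route: 69.9% of Kmo, 64.4% of Kynu and 58.3% of Haao, while they held 23.1% of all UMIs. The pDC, with the highest Kmo level, held 4.41% of its UMIs, and mature DC held 27.6% of those of Il4i1. CD8 T cells held 37.0% of Qprt and 18.9% of Haao. Barcodes outside the classes held 13.2% of all UMIs, and between 9.60% (Afmid) and 24.6% (Ahr) of the UMIs of the members with over 100. Those with lymphoid and other markers read 260 CPM of Il4i1 and 33.6 of Kmo. Those with both B and T markers, 1452 barcodes at a median of 9569 UMIs, read 38.7 and 21.3.

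Wars (ENSMUSG00000021266, chromosome 12, 108860030 to 108894174) was found in every large class. Mature DC read 58.6, 62.1, 33.5 and 35.1 CPM against 14.2, 18.1, 13.6 and 16.4 in B cells, without overlap, and were higher by 1.48 (1.22 to 1.73) on the log2 scale. Thinned to equal depth this ratio was 1.00 and no longer called. Regulatory T cells stood at 25.2 CPM against 12.7 in CD4 T, a log2 ratio of 0.99 (0.62 to 1.35); library 3, at 0.56, kept it short of the 1.5-fold rule, and without that library it was called, at 1.15. NK cells (33.8 CPM, 15 UMIs) and the monocyte class (35.0) had intervals that overlapped mature DC.

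Ahr (ENSMUSG00000019256, chromosome 12, 35497974 to 35535038) had its highest level in the monocyte class, at 76.1, 66.4, 26.4 and 37.1 CPM, followed by cDC1 at 46.2 from 13 UMIs. Without the barcodes that also held Cd79a or Cd3e RNA, cDC1 stood at 29.6 CPM from 7 UMIs (11.9 to 61.0). Regulatory T cells read 20.8, 23.9, 39.1 and 39.3 CPM against 5.47, 2.77, 3.38 and 4.67 in CD4 T cells. In libraries 3 and 4 regulatory T cells lay above the monocyte class. Every regulatory T library was above every CD4 T library, and regulatory T cells were higher by 2.98 (2.54 to 3.42) on the log2 scale. In regulatory T cells 57 of 436 barcodes (13.1%) had a UMI, and in CD4 T cells 64 of 2925 (2.19%). Gamma-delta T cells read 10.5, 18.6, 4.68 and 34.2 CPM, a log2 ratio to CD4 T of 2.10 (1.38 to 2.77) that library 3 kept from being called; without it the ratio was 2.41 and called. Mature DC stood at 28.3 CPM (23.1 to 34.2), higher than B cells by 1.5 (1.18 to 1.81), and B cells at 9.99, higher than CD4 T by 1.28 (0.91 to 1.66). Both calls were lost at a fold of 2. CD8 T cells had the lowest level of the large classes, at 2.79 CPM.

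**Figure D3:**
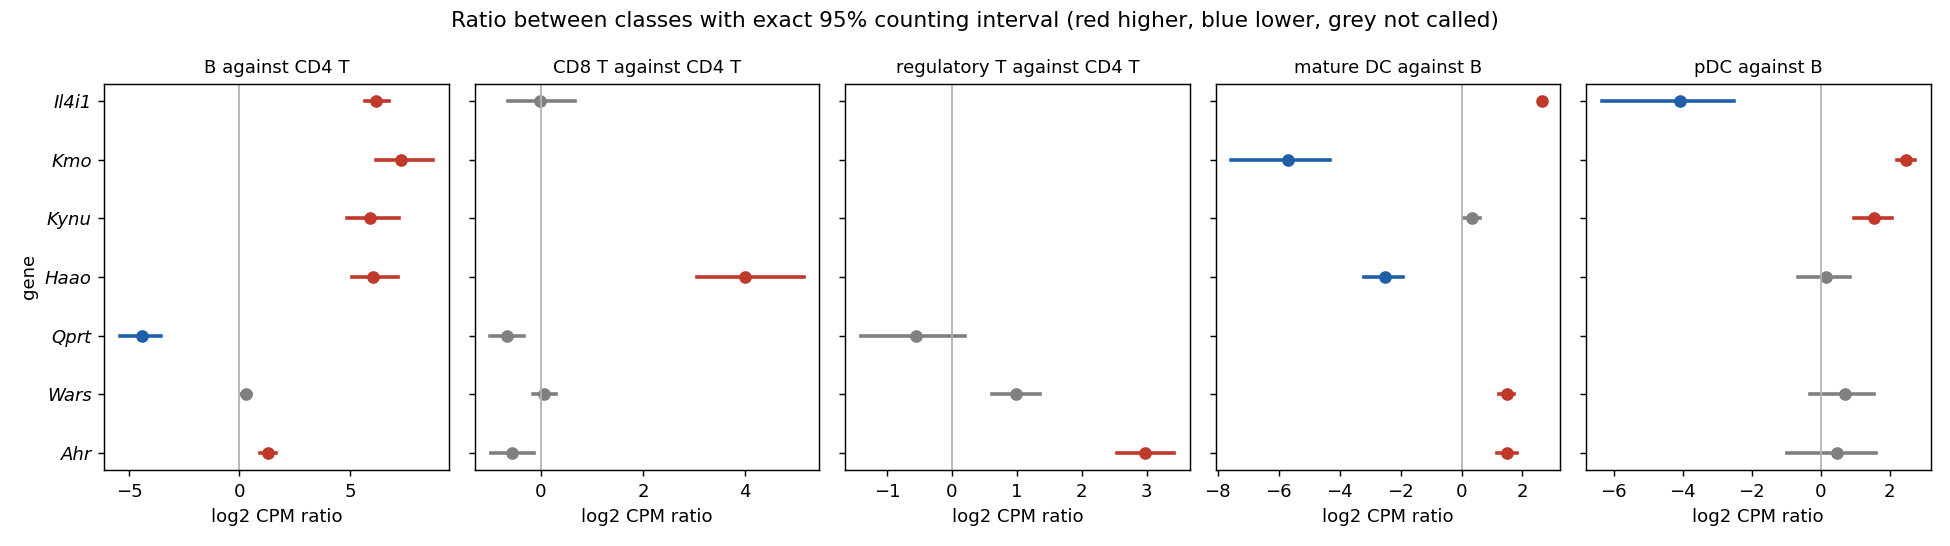
Log2 ratio of CPM between 2 classes on the horizontal axis for 7 genes on the vertical axis in 5 comparisons, with the exact 95% counting interval. Red is called higher, blue called lower and grey not called; Kmo is at -5.67 in mature DC against B cells and 2.47 in pDC against B cells.

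Read against all genes, the counts of called members were as follows, a member being called when 3 or more libraries had 10 UMIs of it over both classes and each of these showed a ratio of 1.5-fold or more one way. This is a fixed rule and not a significance test. Of 8 members that reached these counts in B cells against CD4 T cells, 5 were higher (Il4i1, Kmo, Kynu, Haao, Ahr) and 1 was lower (Qprt), where the same rule called 14.3% of 11192 genes higher and 11.6% lower. The median log2 ratio was 3.59 over these members and 0.07 over all genes tested. In CD8 against CD4 T cells 1 of 6 was higher (Haao), against 2.83% of genes, and 0 lower, against 3.2%. In regulatory against CD4 T cells 1 of 3 was higher (Ahr), against 9.58%, and 0 lower, against 2.1%, and in gamma-delta T cells 0 of 3 was called, against 5.22% higher and 2.2% lower. In germinal centre B cells against B cells 1 of 7 was lower (Kynu), against 7.34%, and 0 higher, against 7.6%; a share this near the background is not a result about the members.

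Among the dendritic and myeloid classes, Il4i1 was the 1 member of 4 called in mature DC against cDC1, where 19.2% of genes were higher and 9.72% lower, and the 1 of 4 against the monocyte class, where 11.9% were higher and 15.5% lower. Kmo was the 1 member with enough UMIs in pDC against cDC1 and was higher, against 18.9% of genes higher and 7.87% lower. In macrophages against the monocyte class 0 of 1 was called, against 7.38% higher and 17.4% lower. In mature DC against B cells 3 of 7 were higher (Il4i1, Wars, Ahr) and 2 lower (Kmo, Haao), against 17.4% and 23.5%, with a median log2 ratio of 0.34 over the members and -0.22 over all genes tested. In pDC against B cells 2 of 7 were higher (Kmo, Kynu) and 2 lower (Il4i1, Afmid), against 8.91% and 14.5%. The Afmid call rests on 0 UMIs in pDC, whose bound of 6.91 CPM lies above the B cell level. It was lost when the counting interval had also to exclude equal levels. That setting called 581 of 10481 genes lower in pDC against B cells, where the main rule called 1523. The last 2 comparisons were added after the data were seen.

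Between libraries, 6 of 32 pairs of a member and a class with at least 50 UMIs differed by 1.5-fold or more with separate intervals. In B cells these were 2 of 7, Il4i1 (highest over lowest 1.84) and Ahr (14.2, 9.70, 7.94 and 8.81 CPM), against 4.94% of genes. Il4i1 also differed in germinal centre B cells, where 1 of 5 did against 14.5% of genes, at 81.5, 88.9, 153 and 103 CPM. Il4i1 and Haao differed in CD8 T cells, 2 of 6 against 4.47%, and Il4i1 in the monocyte class, 1 of 1 against 22.2%. In mature DC 0 of 4 differed, against 10.5% of genes, and likewise 0 of 3 in CD4 T (6.54%), 0 of 3 in T cells of no subset (5.78%), 0 of 2 in regulatory T (11.2%) and 0 of 1 in pDC (8.22%). For Il4i1 the highest library was not shared. It was library 2 in B cells, library 3 in germinal centre B cells and library 1 in the monocyte class. Libraries 1 and 2 both read above libraries 3 and 4 in B cells, the monocyte class and mature DC. Both read below them in germinal centre B cells, where libraries 3 and 4 held 19 and 24 barcodes. In CD8 T cells library 4 was highest and library 3 lowest. Library, mouse and treatment cannot be told apart here, and the part of any of them in these spreads was not tested.

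**Figure D4:**
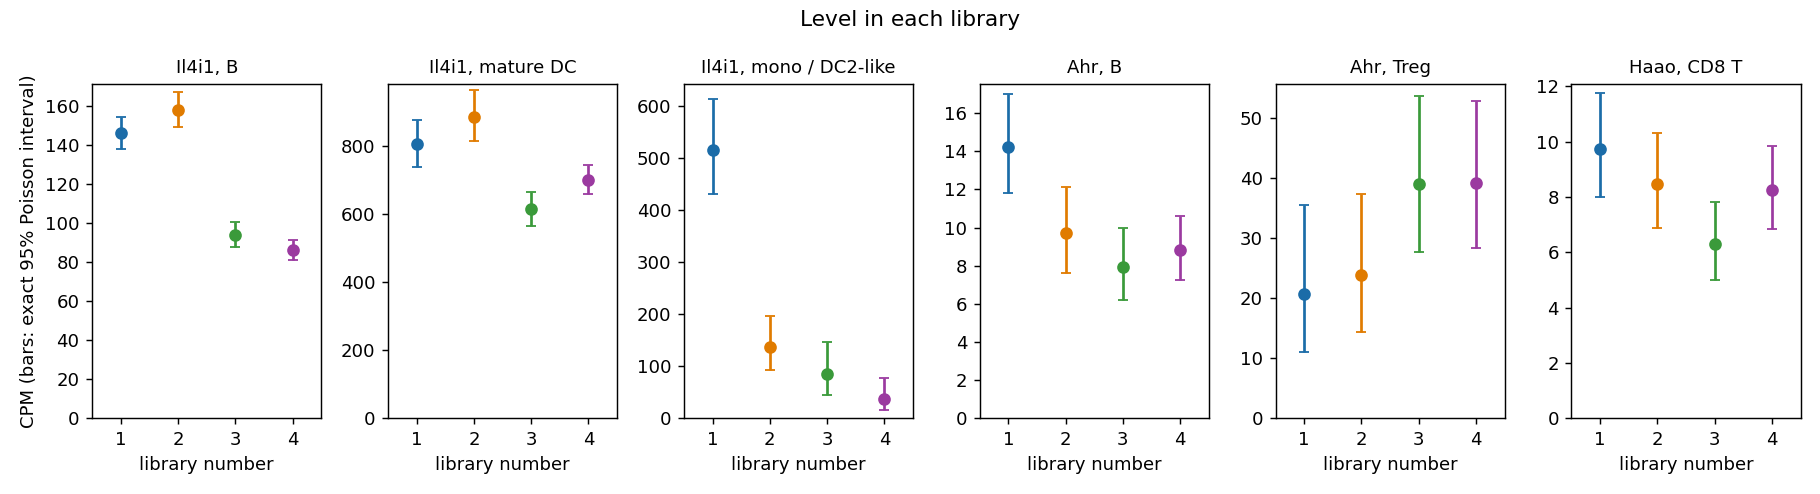
CPM on the vertical axis in libraries 1 to 4 on the horizontal axis for Il4i1 in 3 classes, Ahr in 2 and Haao in CD8 T cells, with exact 95% Poisson intervals. Il4i1 in B cells runs from 85.9 in library 4 to 158 in library 2, and Ahr in regulatory T cells from 20.8 to 39.3 with intervals that overlap.

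A further 25 genes of tryptophan use and AhR signalling were read the same way. Ahrr, the repressor that AhR itself is known to induce, had 69 of its 98 UMIs in mature DC (70.4%) and 22 (22.4%) in barcodes with lymphoid and other markers. By library the mature DC held 17, 19, 15 and 18 UMIs, or 24.9, 30.2, 15.2 and 12.4 CPM, against 1 UMI in all 8884 B cells and 0 in cDC1 and the monocyte class. It was called higher in mature DC against B cells at a log2 ratio of 9.45 (6.93 to 14.8), and at least 4.91-fold higher against 3 counts in the monocyte class. Another known AhR target, Tiparp, was lower in mature DC than in B cells, by a log2 ratio of -1.91 (-2.48 to -1.39). Cyp1a1 and Cyp1b1, the classical targets, had 4 and 11 UMIs in all kept barcodes. Regulatory T cells, with Ahr at 32.4 CPM, were called in 1 of 12 genes of this list, the AhR chaperone gene Ptges3, at 0.87 (0.73 to 1.00), against 9.58% of all genes called higher, so this count is near the background and not a result about the list.

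In B cells against CD4 T cells 4 of 14 genes of this list with enough UMIs were higher and 0 lower, against 14.3% and 11.6% of all genes: Tdo2 (1.59, log2), Eif2ak4, which encodes the kinase GCN2 that senses uncharged transfer RNA (1.17), the kynurenine aminotransferase gene Kyat3 (0.98) and Tiparp (0.87). In germinal centre B against B cells 2 of 14 were higher, the amino acid transporter gene Slc7a5 (2.06, 1.60 to 2.51) and Ptges3 (0.81), and 2 lower, Tdo2 and Nadsyn1, against 7.6% and 7.34% of all genes. In CD8 against CD4 T cells 2 of 16 were higher, Nmnat2 (3.01) and Ddc (2.70), against 2.83% of all genes, and 0 lower, against 3.2%. In mature DC against the monocyte class 3 of 9 were higher, Ahrr, Nmnat1 and Nmnat3, and 1 lower, Gpr35, a receptor for kynurenic acid (-3.28, -4.00 to -2.59), against 11.9% and 15.5% of all genes. In mature DC against B cells 3 of 15 were higher and 3 lower, against 17.4% and 23.5%. In gamma-delta against CD4 T cells 0 of 12 were called, against 5.22% higher and 2.2% lower. In mature DC against cDC1 1 of 7 was higher (Ahrr), against 19.2%, and 0 lower, against 9.72%. In pDC against cDC1 0 of 2 were called, against 18.9% higher and 7.87% lower. In macrophages against the monocyte class 1 of 3 was lower (Gpr35), against 17.4%, and 0 higher, against 7.38%. In pDC against B cells 3 of 14 were lower (Tdo2, Kyat1, Kyat3), against 14.5%, and 0 higher, against 8.91%. Each of these 3 calls rests on 0 UMIs in pDC. The pDC bound of 6.91 CPM lies above the B cell level of each in every library, so none is shown to be lower. Counts of this size that lie near the shares of all genes are not results about the list.

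Across the 12 classes with at least 50 barcodes, the members fell into few patterns. Pearson's r of log2(CPM + 1) was 0.85 between Kmo and Haao, 0.79 between Kynu and Haao, 0.78 between Kmo and Kynu, 0.86 between Wars and Ahr, and -0.69 between Il4i1 and Qprt. These describe 12 points that share libraries and differ in depth, and carry no test. Among 11054 genes with at least 200 UMIs, the nearest to Il4i1 were Nuak2 (r = 0.98), Cd40 (0.96) and Map2k1 (0.96). The nearest to Kmo were Trappc5 (0.95), Plekhm3 (0.94) and Bcl11a (0.93), and to Kynu they were Uvrag (0.98), Slc15a4 (0.95) and Ctsh (0.95). Haao was nearest to A530032D15Rik (0.90), H2-Oa (0.89) and Mef2c (0.89), and Qprt to Tex264 (0.93), Skp1a (0.91) and Tmlhe (0.90). Wars was nearest to Ap3b1 (0.97), Il3ra (0.96) and Sdccag8 (0.94), and Ahr to Eloa (0.92), Stx11 (0.89) and Adam10 (0.89).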

How the data were processed

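Single-cell RNA of tumour-draining inguinal nodes was captured with 10x 3' version 3 chemistry, per the labels' protocols. The deposited matrix holds raw UMI counts per gene and barcode; Cell Ranger 5.0.0 is named in the file header and mm10 in the submitters' processing notes. Whether reads were evened out between libraries is not given in the sources used here. Kept barcodes had 300 genes or more and no more than 10% mitochondrial UMIs (4728 left out). Classes needed a UMI of at least 2 markers (3 for mature DC and the monocyte class), but T cell subsets were then split on fewer. Among barcodes with 2 T markers, any UMI of Cd4, of Cd8a or Cd8b1, or of Foxp3 set CD4, CD8 or regulatory T. Gamma-delta T needed Trdc and another of its markers. A regulatory T cell without a Foxp3 UMI could thus fall into CD4 T. B and T barcodes with both, or lymphoid barcodes with other markers, stayed outside. Between 1.57% and 26.7% of the barcodes of the classes compared sat at the minimum of markers. For the T cell classes this was scored on the shared T markers and not on the subset marker. UMIs were summed per class and library and divided by the class total (CPM). Intervals are exact 95% (Poisson, Clopper-Pearson, conditional binomial) and cover counting error only; a count of 0 is bounded by 3 counts. Named genes were all 10 members, the called genes of a list of 25 (up to 4 by size per comparison), and the 3 nearest genes by correlation. The members and lists were chosen with earlier results of these data known. Doublets were called with Scrublet in scanpy 1.11.5 (927 barcodes, 758 of them with B and T markers) and kept. The calling rule was checked on simulated counts. Alternatives covered fold, count minimum, cell filter, gates, doublets, RNA of other cells, scaling, depth and libraries. Gene positions are from GENCODE and promoter windows from RefSeq. Python 3.11.15, numpy 2.4.6, scipy 1.17.1 and pandas 2.3.3 were used.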

Additional observations from a re-analysis of the deposited data

Results flagged for a closer look

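Barcodes that failed the cell filter were not used in any comparison, yet held UMIs of 8 members above the bound that a count of 0 allows (0.377 CPM over their 7956993 UMIs). The 4728 barcodes, 1708 with under 300 genes and 4252 with over 10% mitochondrial UMIs, held 484 Il4i1, 215 Kmo, 104 Ahr, 80 Wars, 76 Kynu, 71 Haao, 34 Qprt and 13 Afmid UMIs. These were 4.66% of all Il4i1 UMIs and 6.75% of all Kmo UMIs. Il4i1 stood at 60.8 CPM there against 59.9 in all kept barcodes, and Kmo at 27.0 against 18.0. No class was assigned to these barcodes.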

How the results depend on the processing

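No paired analysis was possible because the barcodes carry a library number and no mouse number, so libraries could not be tied to the numbered mice of the groups. The recomputed counts were mostly of called members per comparison. They also included members that kept their highest class and pairs of member and class that differed between libraries. Of all these counts, 137 stayed within 1.5 times the main count and 38 did not. Calls in B against CD4 T and CD8 against CD4 T did so under every alternative run. The shares below are of all genes tested, called either way under the same setting, in the order of the comparisons named. At a fold of 2 the counts were 0 in germinal centre B against B, 0 in mature DC against the monocyte class and 2 in pDC against B. The shares were 7.82%, 18.1% and 18.4%. With no count minimum the counts were 1 in gamma-delta T, 4 in mature DC against cDC1, 4 against the monocyte class, 1 in macrophages and 2 in pDC against cDC1. Here the shares were 15.8%, 35.4%, 28.5%, 23.4% and 21.8%. A filter of at least 500 genes and at most 5% mitochondrial UMIs kept 13770 barcodes. It gave 2 in germinal centre B, 1 in gamma-delta T, 2 in mature DC against cDC1 and 0 against the monocyte class. It also gave 1 in macrophages and 0 of 0 testable in pDC against cDC1. The shares for these comparisons were 17.9%, 7.3%, 29.8%, 27.6%, 23% and 22%. With 1 more marker needed the counts were 2 in germinal centre B and 0 in mature DC against the monocyte class, with shares of 24.4% and 27.4%. Without barcodes holding RNA of other cell types they were 0 in germinal centre B and 1 in gamma-delta T, with shares of 15% and 7.27%. Median-of-ratios scaling, which shifted ratios by up to 0.39 (log2, mature DC against cDC1), gave 2 there, with a share of 32.2%. Thinned to 1500 UMIs, germinal centre B had 2, regulatory T 0 of 1 testable and pDC against cDC1 0 of 0. Mature DC against B had 3 and pDC against B had 2. After thinning the shares were 11.1%, 5.67%, 35%, 30.1% and 29.5%. A setting with lymphoid markers ignored in the other gates was chosen after seeing the data. It gave 2 in mature DC against cDC1, 2 against the monocyte class and 2 in pDC against cDC1. Those shares were 20.1%, 22.2% and 21.4%. In this setting 11 of 37 pairs of member and class differed between libraries, against 6 of 32. No share of all genes was computed for these 37 pairs. Leaving out each library in turn gave 1 to 3 in germinal centre B, 1 to 2 in regulatory T and 0 to 1 in gamma-delta T. It gave 1 to 3 in mature DC against cDC1, 1 to 2 against the monocyte class and 0 to 4 in macrophages. The 3 in germinal centre B came without library 3 (share 23.6%) and the 4 in macrophages without library 4 (30.2%). Shares in mature DC against cDC1 ran from 34.9% to 39.3%. Counts that move with these shares are not results about the members. Reversals were Kynu in germinal centre B against B (0.071 in 1 random thinning, from -0.94) and Afmid in pDC against B (-0.15 with lymphoid markers ignored, where the main value is a bound). The share of thinned barcodes with a Kynu UMI was lower in germinal centre B cells than in B cells, at 2.90% against 3.68%. The cause of the changes between settings was not tested. Few UMIs limited cDC1, pDC and macrophages, where a count of 0 allows 10.7, 6.91 and 11.8 CPM.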

Other observations

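The rarest classes, 32 barcodes of plasma cells, neutrophils, melanoma, stromal cells and innate lymphoid cells in all, held 0 UMIs of Ido1, Ido2, Kynu, Haao and Qprt. Wars had 17 UMIs in 5 of these barcodes, 11 of them in 1 of the 3 melanoma barcodes. Il4i1 had 6 UMIs in 3 barcodes, 4 of them in 1 of 18 neutrophil barcodes.

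Ddc, which encodes the decarboxylase of the serotonin branch of tryptophan use, read 7.42, 9.07, 7.08 and 8.58 CPM in CD8 T cells by library and 1.24 in CD4 T cells over all libraries, while Tph1, the entry enzyme of that branch, had 4 UMIs in all kept barcodes. Tdo2 had 149 UMIs in B cells, at 3.53, 3.57, 3.15 and 4.92 CPM by library, and 3 in germinal centre B cells. Gpr35 read 84.1, 42.7, 85.8 and 69.0 CPM in the monocyte class and 43.8 in pDC. Aadat, a kynurenine aminotransferase gene, had 0 UMIs among 26096 barcodes.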
